A study of Saccharomyces cerevisiae with 4 samples.

Results

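Iron uptake in budding yeast, Saccharomyces cerevisiae, was followed through 10 genes out of 6256 on the array: FRE1, FET3, FTR1, ARN1, ARN2, SIT1, FIT1, FIT2, FIT3 and AFT1. They were chosen by name for their roles in taking up iron, with earlier results of these data known. All 10 passed the filter on dim signal that 5343 genes passed. The study compared the parental strain BY4741 with a mutant that carries a DAmP allele of ERG12, in which a disrupted end of the message lowers the transcript. ERG12 encodes mevalonate kinase, a step in the pathway to sterols, ubiquinone and haem A. The labels give its kinase activity as 10% of that in BY4741. Both strains were grown in synthetic YNB medium with 20 g/L glucose, washed, and put into the same medium with either 20 g/L glucose or 20 g/L glycerol at 30 °C. This gave parental glucose, parental glycerol, mutant glucose and mutant glycerol cells. The labels do not agree on the last step. They give 1 h in the new medium, growth to an optical density of 0.5, and 1 h in YPD medium at pH 2.5, the same for every sample. No sample lacked these steps, so how they bear on the effect of the carbon source on the iron genes cannot be told.

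Yeast takes up iron by a reductive route and by carriers for siderophores, the iron chelators that other microbes secrete. In the reductive route, surface reductases such as Fre1 make ferrous iron, which the multicopper oxidase Fet3 oxidises and the permease Ftr1 carries inward. Arn1, Arn2 and Sit1 import siderophore-bound iron, and the cell wall mannoproteins Fit1, Fit2 and Fit3 help retain it near the cell surface. The transcription factor Aft1, with its relative Aft2, switches these genes on when iron is short, and is held inactive through Grx3, Grx4, Fra1 and Fra2 when mitochondrial iron-sulfur cluster synthesis is adequate. Iron is also needed for haem and for several enzymes of sterol synthesis and respiration.

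There were 4 comparisons, each with 1 array in slide row 1 and 1 in slide row 2, from what the labels call biological duplicates: glycerol over glucose in each strain, and mutant over parental in each medium. The RNA named first always carried Cy5 and the other Cy3, and no dye swap was made, which leaves any dye bias in the ratios. Ratios are log2 values after loess normalization within an array, which sets the typical gene of an array to 0. All 8 arrays lay on 1 slide, and their number limits the precision. Replicate arrays correlated across genes, which are not independent replicates, at r = 0.953 (parental glycerol response), 0.898 (mutant glycerol response), 0.716 (mutant over parental, glucose) and 0.511 (mutant over parental, glycerol). ERG12 itself was too dim to test: 5 of 8 parental channels and 1 of 8 mutant channels passed the background criterion. Of 160 channel readings of the iron uptake genes, 157 were well above background and 0 were saturated. The dim readings were FIT2 in mutant glucose on 1 of 2 arrays of the mutant glycerol response, and FRE1 in parental glycerol on 1 of 2 arrays of each comparison that holds that RNA. RNA came from whole cultures, so more transcript per cell and more cells with the transcript cannot be told apart.

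In parental cells, glycerol against glucose left most iron uptake genes without a call, and FIT2 rose. FIT2 stood at 3.84 on the row 1 array and 3.68 on the row 2 array. Both arrays placed it far above the other 9 genes, and the fitted ratio was 3.76 ± 0.41 (SE, n = 2 arrays, limma adjusted p = 0.00011), 13.5-fold. Agilent's processed ratios were 4.48 and 4.73, so the size of the rise depends on the processing. Over all genes tested 62% were called at an adjusted p under 0.05. FIT2 was 1 of 10 iron uptake genes called higher, against 31.4% of all genes, and 0 were called lower, against 30.5%. At an unadjusted p under 0.05 limma gave 2 higher and 1 lower. SIT1, the ferrioxamine carrier, stood at 1.69 and 0.98 (fitted 1.33 ± 0.63, adjusted p = 0.0958). AFT1 stood at 0.53 and 0.39 (0.46 ± 0.20, adjusted p = 0.0708). Those 3 genes were on the positive side and the other 7 on the negative side.

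The reductive route and the remaining siderophore carriers lay below 0 in parental glycerol cells, with little spread between arrays. FET3 stood at -1.14 on both arrays, ARN1 at -0.74 and -0.85, and ARN2 at -0.54 and -0.50. FRE1 stood at -0.47 and -0.46 and FTR1 at -0.39 and -0.14. The pair of arrays differed by less than 0.3 for each of these genes. None was called, and the fitted FET3 ratio was -1.14 ± 0.72 (adjusted p = 0.201). The fit shares its error among all arrays, including those of mutant glycerol RNA, whose replicates differed on FET3, FTR1, ARN1 and ARN2. FIT3 stood at 0.11 and -0.27, and FIT1 at -0.05 and -0.26, on both sides of 0 or near it.

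Calls in the parental strain depended on arrays of the other strain. Without both row 1 arrays of mutant glycerol RNA, or without both row 2 arrays, limma called 7 of 10 iron uptake genes here, a choice made after the data were seen. With either pair left out, FIT2, SIT1 and AFT1 were higher (32.1% of all genes were), and FET3, ARN1, ARN2 and FRE1 were lower (30.5% of all genes were). FET3 then had -1.14 ± 0.13 (adjusted p = 0.000151), ARN1 -0.79 ± 0.12 (adjusted p = 0.000512), FTR1, not called, -0.26 ± 0.13 (adjusted p = 0.103) and SIT1 1.33 ± 0.17 (adjusted p = 0.000216). The ratios themselves are the same in either fit, and only their error differs. Leaving out 1 array of mutant glycerol RNA gave 3 or 4 calls.

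**Figure D1:**
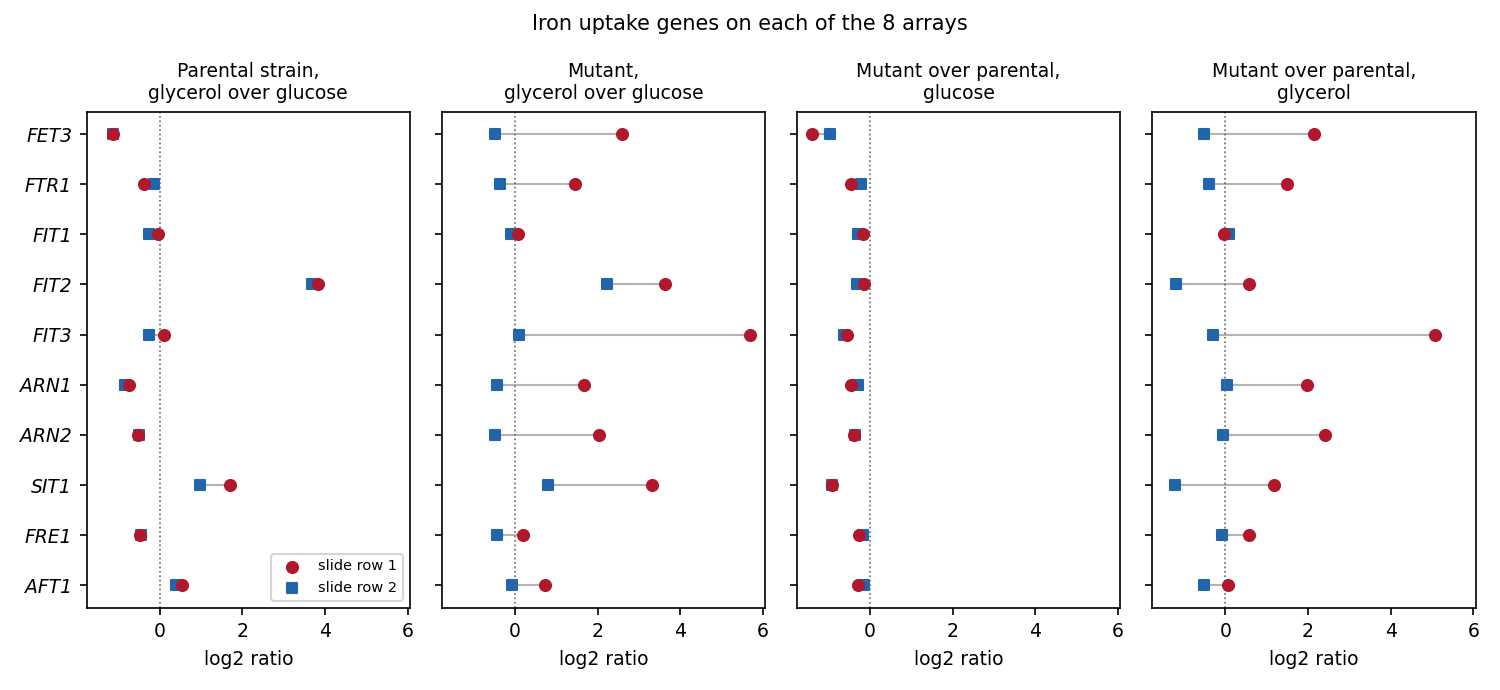
Log2 ratio of each iron uptake gene (vertical axis) on each array (circles, slide row 1, and squares, slide row 2) in the 4 comparisons, with a line joining the replicate arrays. The replicates lie close together in the parental glycerol response and between the strains in glucose, and far apart in both comparisons that hold mutant glycerol RNA, most of all for FIT3 (5.70 against 0.09, and 5.07 against -0.30).

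In the mutant, FIT2 and SIT1 were called higher on glycerol, but for most iron uptake genes the replicate arrays disagreed. FIT2 stood at 3.63 and 2.22 (2.93 ± 0.41, adjusted p = 0.000752, 7.61-fold) and SIT1 at 3.32 and 0.81 (2.06 ± 0.63, adjusted p = 0.0271, 4.18-fold). Both were positive on both arrays. On the row 2 array FIT2 in mutant glucose was not well above background, and Agilent's processed ratio there was 3.95 in place of 2.22. On the row 1 array it was 4.44 in place of 3.63. Over all genes tested 46.6% were called. The 2 were those called higher among 10 iron uptake genes, against 24.7% of all genes, and 0 were called lower, against 21.9%. At an unadjusted p under 0.05 limma gave the counts 2 and 0. The SIT1 call was lost without the row 1 array of this comparison (0.81, adjusted p = 0.362) and without either parental glycerol array (adjusted p = 0.0504). With the row 2 array left out, the comparison rests on 1 array, where FIT2 stood at 3.63 and SIT1 at 3.32.

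FIT3, the mannoprotein gene next to FIT2 on chromosome XV, showed the widest split. Its mutant glycerol over mutant glucose ratio was 5.70 on the row 1 array and 0.09 on the row 2 array. In the Cy5 channel of mutant glycerol the spot signal was 32179 scanner units on the row 1 array and 460 on the row 2 array. The fitted ratio of 2.89 ± 1.37 was not called (adjusted p = 0.117). Mutant glucose on the same arrays gave 489 and 622 units, so the split lay in the glycerol channel.

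The reductive route and the siderophore carriers split the same way. FET3 stood at 2.59 in row 1 and -0.49 in row 2, and its partner FTR1 at 1.45 and -0.37. ARN2, the triacetylfusarinine carrier, stood at 2.03 and -0.47, and ARN1, a ferrichrome carrier, at 1.67 and -0.44. All 4 were above 0 in row 1 and below 0 in row 2, where they lay on the same side as in parental cells. AFT1 stood at 0.72 and -0.06 and FRE1 at 0.19 and -0.43, with smaller gaps. FIT1 hardly differed, at 0.06 and -0.09. Without both row 1 arrays of mutant glycerol RNA, FIT2 and SIT1 were called higher (19.3% of all genes were) and ARN2 lower at -0.47 (16.8% were). Without both row 2 arrays 8 genes were called higher (16.6% were), all but FIT1 and FRE1, and 0 lower (13.7% were).

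Between the strains in glucose, all 10 iron uptake genes lay below 0, that is lower in the mutant, and 0 were called, against 7.04% of all genes tested (3.5% higher and 3.54% lower). Limma also gave 0 at an unadjusted p under 0.05. FET3 stood at -1.42 and -0.98 (-1.20 ± 0.72, adjusted p = 0.323), the 20th lowest of 5343 ratios. SIT1 stood at -0.93 on both arrays (adjusted p = 0.376), and FIT3 at -0.56 and -0.62 (adjusted p = 0.821). The other 7 fitted ratios ran from -0.39 for ARN1 to -0.22 for AFT1, and the median over all 10 was -0.36 against 0.00 over all genes tested. Every gene was negative on both arrays.

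These arrays hold no mutant glycerol RNA, but share their error estimate with those that do. Without either row of the mutant glycerol arrays, 3 of 10 iron uptake genes were called lower in the mutant, against 4.04% of all genes, and 0 higher, against 4.83%. They were FET3 (-1.20 ± 0.13, adjusted p = 0.00322), SIT1 (-0.93 ± 0.17, adjusted p = 0.0164) and FIT3 (-0.59 ± 0.13, adjusted p = 0.031). Leaving out any single array gave 0 calls.

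Between the strains in glycerol, 0 of 10 iron uptake genes were called, against 4.12% of all genes tested (3.24% higher and 0.88% lower), and limma gave 0 at an unadjusted p under 0.05. FIT3 had a fitted ratio of 2.39, second highest of all genes, made of 5.07 in row 1 and -0.30 in row 2 (SE 1.37, adjusted p = 0.38). Its spot signal in mutant glycerol was 32289 units in row 1 and 562 in row 2, close to the values on the other pair of arrays. Parental glycerol gave 1031 and 558 units there.

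The other genes followed the row as they had in the mutant glycerol response. ARN2 stood at 2.40 and -0.05, FET3 at 2.15 and -0.51, ARN1 at 1.99 and 0.03, and FTR1 at 1.48 and -0.40. SIT1 stood at 1.19 and -1.21, and FIT2 at 0.57 and -1.19, so that their signs opposed and the means lay near 0 or below it. FRE1 stood at 0.56 and -0.08, and AFT1 at 0.07 and -0.52. Agilent's processed ratios were 1.31 and -0.14 for FRE1, and 0.03 and -0.81 for AFT1. FIT1 again hardly differed, at -0.04 and 0.08.

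Which strain was higher in glycerol thus differed by row. Without both row 2 arrays of mutant glycerol RNA, 6 of 10 iron uptake genes were called higher in the mutant (4.6% of all genes were) and 0 lower (2.1% were). They were FIT3, ARN2, FET3, ARN1, FTR1 and SIT1. Without both row 1 arrays 1 was called, FIT2, lower in the mutant (-1.19 ± 0.17, adjusted p = 0.0265, with 0.0749% of all genes lower and 0.88% higher). In each of these fits, a choice made after the data were seen, 1 array stands for the comparison. Its error is assumed to be that of the parental glycerol response and the strains in glucose. Such calls follow from the choice of row.

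**Figure D2:**
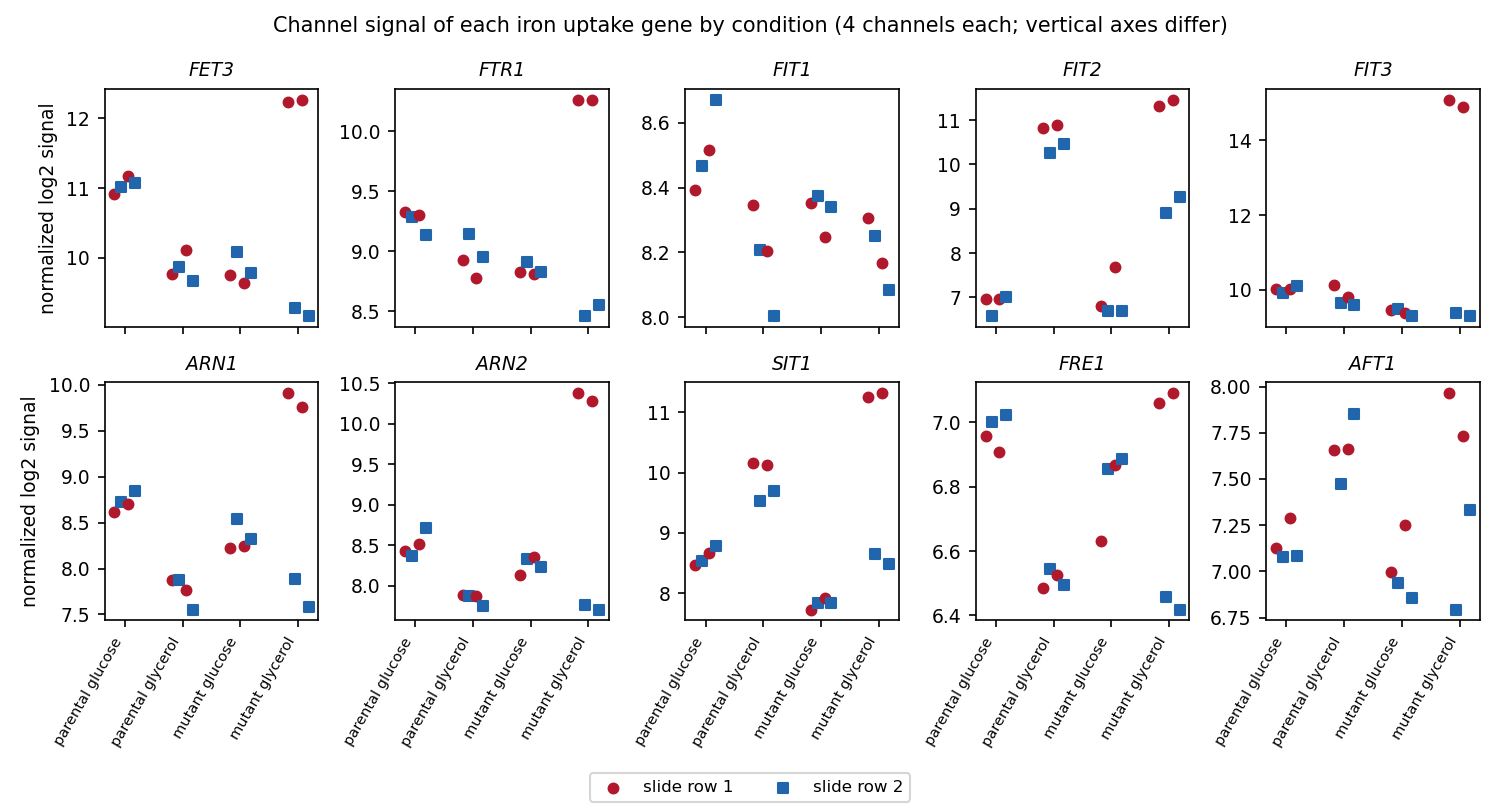
Normalized log2 signal (vertical axis, own scale for each gene) of the 10 iron uptake genes in the 4 channels of each condition, circles from slide row 1 and squares from slide row 2. In 8 genes both row 1 channels of mutant glycerol lie above all 14 other channels, FIT1 and AFT1 being the exceptions. The share of all genes with such channels was not computed.

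The channel signals give the levels behind these ratios, on a log2 scale after scaling between arrays, for each gene against itself. FIT3 measured 15.07 and 14.87 in the mutant glycerol channels of row 1, and 9.38 and 9.30 in those of row 2. The other 12 channels of FIT3 ran from 9.30 to 10.14, and row 1 was 49.6-fold above row 2. The row 2 channels lay in or next to the range of mutant glucose (9.30 to 9.48) and below every parental channel. FET3 measured 12.24 and 12.26 in row 1 against 9.29 and 9.16 in row 2 (8.14-fold), with 9.65 to 11.17 in the other channels. Here row 2 lay below every other condition and row 1 above.

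SIT1 was 6.54-fold, ARN2 6.04-fold, FIT2 4.92-fold, ARN1 4.29-fold and FTR1 3.37-fold higher in row 1 than in row 2 of mutant glycerol. AFT1, the regulator's own gene, was 1.72-fold, FRE1 1.56-fold and FIT1 1.05-fold higher. In 8 of 10 genes both row 1 channels lay above all 14 other channels. For FRE1 the margin was narrow (7.06 and 7.09 against at most 7.02). In FIT1 and AFT1 they did not. These channels were singled out after their values were seen, and the share of all genes with such channels was not computed.

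Parental glucose held the highest FET3 levels outside row 1 of mutant glycerol, at 10.91 to 11.17, with parental glycerol at 9.67 to 10.11 and mutant glucose at 9.65 to 10.09. The latter overlapped. For ARN1 and ARN2, parental glucose lay above mutant glucose, and mutant glucose above parental glycerol, without overlap. ARN2 ran from 8.37 to 8.71, from 8.13 to 8.35 and from 7.75 to 7.89 in these conditions. For SIT1 the order was different, with parental glycerol (9.52 to 10.16) above parental glucose (8.47 to 8.78) and mutant glucose lowest (7.73 to 7.93). FIT2 was low in both glucose conditions, at 6.57 to 7.69, and at 10.25 to 10.89 in parental glycerol. FIT3 was higher in parental glycerol (9.60 to 10.14) than in mutant glucose (9.30 to 9.48), without overlap. The range of mutant glycerol overlapped those of its neighbours in the order of mean levels for every gene. The exception was FIT2, whose mutant glycerol channels all lay above those of mutant glucose. Outside FIT1 and AFT1, these overlaps came from row 1 channels above the neighbour's range and row 2 channels below it, with no channel inside. Cy5 marked 0 of 4 parental glucose channels, 2 of 4 in parental glycerol and in mutant glucose, and 4 of 4 in mutant glycerol. A dye effect thus cannot be told apart from such orders of conditions. The 4 channels are not 4 independent replicates, and the share of all genes without overlap was not computed.

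Set against all genes, the split between the rows of mutant glycerol RNA was widest for FIT3 and FET3. Ratios were more than 1 log2 unit higher in row 1 than in row 2 in both comparisons for 7 of 10 iron uptake genes (70%) and for 15 of 5343 genes in all (0.281%). More genes, 32, had such a gap the other way, none of them an iron uptake gene. Ranked by the smaller of the 2 gaps among genes higher in row 1, the first 8 were FIT3, FET3, ARN2, SIT1, TIS11, ARN1, FTR1 and FIT2. Of these TIS11, also called CTH2, is another Aft1 target, whose product degrades messages of iron-using proteins. RPS0A, a ribosomal protein gene, was the next at 1.20. Ranked by size in either direction, FIT3, FET3, ARN2 and SIT1 were the first 4, ARN1 was 8th, FTR1 9th and FIT2 17th, while FRE1, AFT1 and FIT1 stood at 239, 290 and 4421. Between them came genes lower in row 1, such as the hexose transporter genes HXT6 (-2.83 and -2.23) and HXT7 (-2.63 and -2.15). These counts and ranks are a description and were not tested, and which genes pass depends on the processing. By Agilent's processed ratios FIT2 stood at 4.44 and 3.95 in the mutant glycerol response, less than 1 apart. FRE1 stood at 0.32 and -1.07 there, and at 1.31 and -0.14 between the strains in glycerol, more than 1 apart in both.

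**Figure D3:**
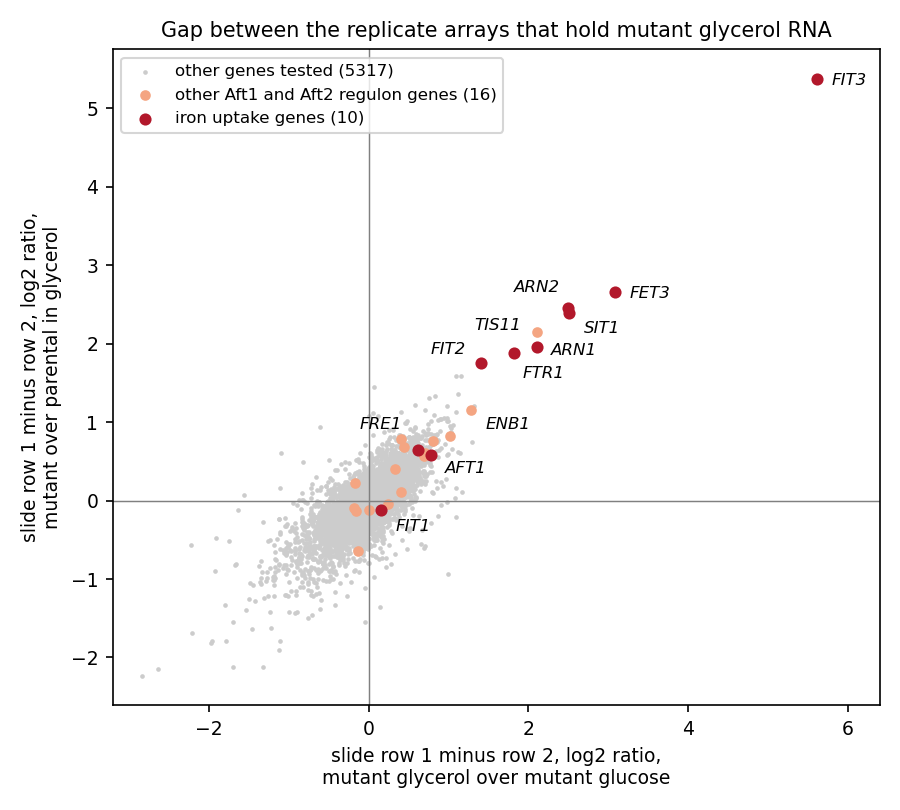
Ratio on the slide row 1 array minus that on the row 2 array for 5343 genes, in the mutant glycerol response (horizontal) and in mutant over parental in glycerol (vertical), both in log2 units. FIT3 lies at 5.61 and 5.37, and FIT1 is the iron uptake gene nearest to 0, within the cloud of other genes.

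Both comparisons share mutant glycerol RNA, and across all genes their deviations between rows went together (r = 0.763). The other pairs of comparisons gave r from -0.449 to 0.137. The labels call the arrays biological duplicates and do not say whether the row 1 arrays of both comparisons carry the same extract. Genes that respond to carbon source also differed between the rows, in both directions. In the mutant glycerol response ICL1, isocitrate lyase, stood at 7.75 in row 1 and 7.27 in row 2, RGI2 at 6.47 and 7.29, and the glucose transporter gene HXT3 at -3.47 and -3.19. These 3 kept their direction in both rows. PCK1, a gluconeogenic enzyme gene, was higher in row 1 by 1.16 in this comparison and by 1.58 between the strains in glycerol, and HXT1, another hexose transporter gene, was lower in row 1, with gaps of -1.70 and -2.12. What set the rows apart was not tested.

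Whether the strains responded differently to glycerol was asked by the mutant ratio minus the parental ratio, in which a constant dye effect cancels. None of the 10 iron uptake genes was called, against 1.87% of all genes tested (0.861% higher and 1.01% lower), and limma gave 0 at an unadjusted p under 0.05. FIT3 had the highest difference of all genes, at 2.97 with a 95% interval from -1.47 to 7.42 (adjusted p = 0.415). FET3 had the third highest, at 2.19 with an interval from -0.16 to 4.54 (adjusted p = 0.262). ARN1 ranked 16th at 1.41 and ARN2 26th at 1.29. The intervals hold 0 for all 10 genes and are too wide to show that the responses were alike.

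The differences also lay far apart between rows. FIT3 differed by 5.59 in row 1 and 0.36 in row 2, FET3 by 3.73 and 0.65, ARN2 by 2.56 and 0.02, and ARN1 by 2.41 and 0.41. For these 4 genes the mutant response was the higher in both rows, but no label pairs arrays by row. The row 2 mutant ratio of FIT3 (0.09) lay between its parental ratios (0.11 and -0.27). That of ARN2 (-0.47) was close to its parental ratios (-0.54 and -0.50). A direction shared by the replicates is thus not established for FIT3 or ARN2. FTR1 gave 1.84 and -0.23 and SIT1 1.63 and -0.17, with opposite signs. FIT2 gave -0.21 and -1.46, but the same difference taken from the strain arrays was 0.71 in row 1 and -0.87 in row 2, so its direction in row 1 is not settled. Its fitted difference was -0.83 by the carbon source arrays and -0.08 by the strain arrays, a mismatch of 0.75 where the SD over all genes was 0.23. Without both row 2 arrays of mutant glycerol RNA, 6 genes were called higher (3.44% of all genes were, and 4.9% lower), and without both row 1 arrays FIT2 alone was called, lower at -1.54 ± 0.21 (adjusted p = 0.0436, with 0.112% of all genes lower and 0.112% higher). That FIT2 value rests on the array where its mutant glucose channel was not well above background, so its size is not established.

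**Figure D4:**
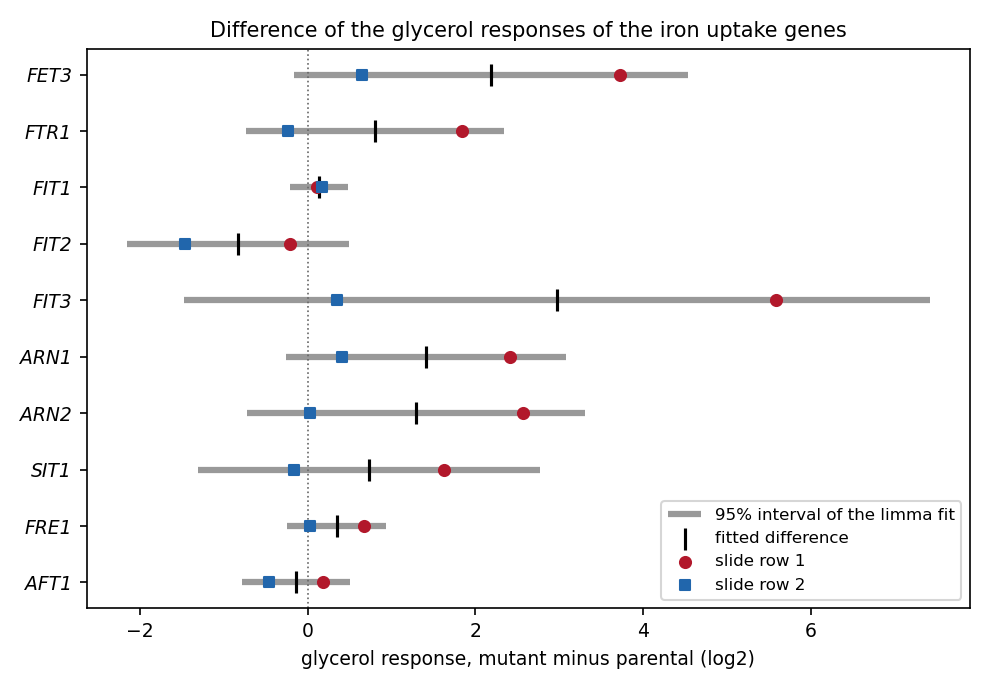
Glycerol response of the mutant minus that of the parental strain (horizontal axis, log2) for each iron uptake gene, with the fitted difference (tick), its 95% interval (bar) and the difference within slide row 1 (circle) and row 2 (square). All 10 intervals hold 0, and FIT3 spans 0.36 to 5.59 between rows.

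Other genes of the Aft1 and Aft2 regulon were called in glycerol in both strains, HMX1 with the highest ratio. Of 16 tested, 7 rose and 4 fell in parental cells, and 6 rose and 0 fell in the mutant. Over all genes 31.4% were higher and 30.5% lower in parental cells, and 24.7% and 21.9% in the mutant, so the parental counts lie near the shares of all genes. FRE5 and FTH1 were too dim to test. HMX1, haem oxygenase, which frees iron from haem, rose by 2.42 ± 0.11 in parental cells (2.43 and 2.42 on the arrays) and by 1.65 ± 0.11 in the mutant (1.57 and 1.74). CCC2, the copper pump that loads Fet3, rose by 1.25 ± 0.18 and 1.07 ± 0.18. ISU1, the scaffold for iron-sulfur clusters, rose by 1.02 ± 0.19 and 1.22 ± 0.19. ENB1, the enterobactin carrier, was lower in parental cells at -1.06 ± 0.32 (adjusted p = 0.0196).

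The row split was also seen in part of these other targets, and in 10 of 16 (62.5%, against 39.6% of all genes) row 1 was the higher in both comparisons. Their median gaps were 0.41 and 0.49, against 0.01 and 0.00 over all genes. TIS11 stood at 2.49 and 0.38 in the mutant glycerol response and at 1.87 and -0.28 between the strains in glycerol. ENB1 stood at 0.70 and -0.57, and at 1.33 and 0.18. These were the 2 of 16 (12.5%, against 0.281% of all genes) with gaps over 1 in both comparisons. The reductase genes FRE3 (1.01 and 0.82), FRE6 (0.80 and 0.76) and FRE2 (0.69 and 0.57) and the vacuolar zinc transporter gene COT1 (0.71 and 0.61) had gaps in the same direction. HMX1, MRS4 and SMF3 had gaps between rows of at most 0.24 in size in both comparisons. ISU1 had gaps of -0.13 in the mutant glycerol response and -0.64 between the strains in glycerol. The reductase gene FRE4 (-0.16 and -0.14) and ATX1 (-0.18 and -0.10) also had gaps in the other direction in both. Between the strains, 0 of 16 were called in glucose (3 at an unadjusted p under 0.05) and 1 in glycerol. That was the biotin carrier gene VHT1, at 0.92 and 0.52 (0.72 ± 0.16, adjusted p = 0.0442). In the difference of responses 0 were called, and 4 had an unadjusted p under 0.05.

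Genes for the proteins that hold Aft1 in check, listed together with AFT2 and the iron-sensing gene YAP5, were called in both directions in glycerol. Of 6 regulators 2 were higher and 3 lower in each strain, where 62% of all genes were called in parental cells and 46.6% in the mutant. GRX4 was lower, at -1.70 ± 0.21 in parental cells and -0.77 ± 0.21 in the mutant, while GRX3, its close relative, rose by 0.79 ± 0.11 and 0.76 ± 0.11. GRX4 differed by row, at -0.47 and -1.07 in the mutant glycerol response and 0.89 and 0.04 between the strains in glycerol. Row 1 was the higher in both comparisons for 2 of 6 regulators (33.3%, against 39.6% of all genes). FRA2, listed as BOL2 in RefSeq, was at -0.91 ± 0.16 and -0.45 ± 0.16 and FRA1 at 0.68 ± 0.12 and 0.55 ± 0.12. AFT2 was lower in both strains, at -0.62 ± 0.11 and -0.65 ± 0.11. None of the 6 was called between the strains or in the difference of responses. At an unadjusted p under 0.05 limma gave 1 higher in each of these 3 comparisons.

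Iron storage and low-affinity uptake, copper uptake and iron-sulfur assembly gave mixed directions, with counts to be read against 31.4% of all genes higher and 30.5% lower in parental cells, and 24.7% and 21.9% in the mutant. Of 6 storage and supply genes 1 rose and 2 fell in parental cells, and 2 rose and 1 fell in the mutant. The mitochondrial iron carrier gene MRS3 was at -0.71 ± 0.12 and -0.45 ± 0.12, and the vacuolar iron importer gene CCC1 rose in the mutant by 0.48 ± 0.16. Among 3 tested genes of the copper regulon, CTR1, the copper permease, rose in parental cells by 0.45 ± 0.13, and its activator MAC1 was lower in both strains, at -0.26 ± 0.10 and -0.30 ± 0.10. Of 15 iron-sulfur assembly genes 5 rose and 5 fell in parental cells, and 4 rose and 2 fell in the mutant. The sulfhydryl oxidase gene ERV1 was at -1.25 ± 0.11 and -1.01 ± 0.11 and the ferredoxin gene YAH1 at -1.02 ± 0.18 and -1.11 ± 0.18. In none of these lists did a gene have a gap over 1 between rows in both comparisons.

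The genes whose ratios over the 8 arrays were most like the mean of the 10 iron uptake genes were TIS11 (Pearson r = 0.98), VPS4 (0.976), SBE2 (0.968), NFG1 (0.962) and PPH21 (0.961). The mean profile itself was 2.14 and 1.54 on both row 1 arrays of mutant glycerol RNA and between -0.51 and 0.28 on the other 6, so these likenesses rest on that pair. They are of shape, not size: the fitted mutant glycerol response of VPS4 was 0.10. Among the uptake genes, FET3 and FTR1, whose products work as a complex, correlated at r = 0.967 over the 8 arrays, and FET3 and FIT2 at 0.156. The arrays share RNA and these values are descriptions.

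In the authors' deposited table, where replicate arrays were combined, the row split is not visible. The authors' deposited table gave FIT3 2.76 for the mutant glycerol response and 2.41 between the strains in glycerol, and FET3 0.87 and 0.84. For FIT2 in the parental glycerol response the authors' deposited table gave 3.52 after its sign was turned, since that column and the scanner values correlated at r = -0.951 over genes. Its log base, centring and direction are not stated, and a scale in log2 was taken from its match to the scanner values.

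All directions above take the typical gene as 0. Centred on spike-in probes, the median of all genes moved to -2.25 in the parental glycerol response, -1.40 in that of the mutant, -1.57 between the strains in glucose and -0.79 between them in glycerol. FIT2 stayed called higher in both glycerol responses. SIT1 and AFT1 in parental cells turned to -0.90 and -1.77 and were called lower. The higher share of all calls in the parental response went from 1679 of 3310 to 100 of 5126. The nominal ratios of the spike-in probes were not used here, so a shift common to all arrays cannot be told apart from a dye effect.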

How the data were processed

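The iron uptake genes and the other lists were chosen with earlier results of these data known. Per the file headers, spot and local background intensity (median pixel brightness in Cy5 and Cy3) and a log10 ratio of processed signals came from Agilent Feature Extraction 10.10.1.1. The authors also deposited a combined table, used as log2 ratios, and limma is the tool that the submitters' processing notes name. Here limma 3.58.1 in R 4.3.3 applied normexp (offset 50) and loess to the median signals, with control and outlier spots left out of the loess fit, and the 2 spots of a gene were averaged. A gene was kept if both spots were well above background in every channel of at least 1 condition (5343 of 6256). Gene names came from the array, and 5756 matched RefSeq R64. Each gene was fitted over 8 arrays with 1 coefficient per comparison, 4 residual degrees of freedom and eBayes, with calls made where the p adjusted over all kept genes (Benjamini-Hochberg) was below 0.05. SEs are those of this fit. Channel levels were scaled with Aquantile. The fit was tested on simulated data. All 10 genes are named, and of other lists up to 3 called genes of largest change. Genes named for the row split were chosen after their values were seen. Probe overlap between paralogs was not analysed here. Alternatives that leave out a slide row of mutant glycerol RNA, and spike-in centring relative to each probe's mean, were added after seeing the data.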

Additional observations from a re-analysis of the deposited data

Results flagged for a closer look

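Of 40 sets of 4 channel levels (10 iron uptake genes in 4 conditions), 4 held a channel whose distance from the nearest of the others was a large part of the set's range. Chance gives such a channel in about 1 of 20 sets. FIT2 in parental glucose had its lowest channel at 6.57, against 6.95 to 7.01 in the others. FIT2 in mutant glucose had its highest channel at 7.69, against 6.68 to 6.81, on the row 1 array of the mutant glycerol response. ARN2 in parental glycerol had its lowest channel at 7.75, against 7.87 to 7.89. FRE1 in mutant glucose had its lowest channel at 6.63, against 6.85 to 6.89. The mutant glycerol sets, split 2 against 2, cannot be singled out this way.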

How the results depend on the processing

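Of 890 values of single genes recomputed under other settings, 751 kept their direction and side of the threshold or changed sign while uncalled in both, 124 passed only in the alternative, 3 passed only in the reported fit and 12 turned sign with a call. The count of iron uptake genes called in the parental glycerol response (1) was 2 with Agilent's processed ratios, 3 with an offset of 10, 4 in the loop model, 0 with the filter on all 16 channels, which removes FIT2 and FRE1, and 1 to 4 when 1 array was left out. That of the mutant (2) was 1 with the strict filter and 1 to 7 when 1 array was left out. The difference of responses (0) gave 0 to 1, and both strain comparisons 0. With the slide row as a replicate block, which no label calls a pairing, the parental count was 4, and the other 4 counts of iron uptake genes stayed at 2, 0, 0 and 0. The labels carry no replicate numbers, and row deviations correlated between comparisons at r from -0.449 to 0.763. Without row 1 of both mutant glycerol comparisons, chosen after seeing the data, the counts were 7, 3, 3, 1 and 1, in the order of the report, and ARN2 in the mutant turned to -0.47. Without row 2 they were 7, 8, 3, 6 and 6, and SIT1 between the strains in glycerol turned to 1.19. Spike-in centring gave 10, 9, 10, 5 and 7, in the order of the report. It called 5126, 4876, 5309, 3919 and 845 of all 5343 genes tested. It turned SIT1 (-0.90) and AFT1 (-1.77) in parental cells, FTR1 (-0.88), ARN1 (-0.81), ARN2 (-0.65) and AFT1 (-1.10) in the mutant, and FIT1 (-0.77) between the strains in glycerol. Each spike-in probe was also set relative to its mean over arrays, a choice made after seeing the data. The counts were then 8, 7, 2, 9 and 9, with medians of all genes at -0.92, 0.20, -0.12, 0.82 and 1.09. Of all 5343 genes tested 4005, 1414, 87, 4663 and 4233 were called. SIT1 (0.80) and AFT1 (0.59) between the strains in glycerol and AFT1 in the difference of responses (0.95) then turned. Over all genes the loop model called 968 in glucose, 732 in glycerol and 1030 in the difference, against 376, 220 and 100. For the difference Agilent's ratios gave 20, the replicate block 43 and leaving out 1 array 0 to 223. Leaving out 1 array gave 5 to 368 in glucose and 18 to 281 in glycerol, and 1453 to 2497 for the mutant response, against 2491. FIT2 and FRE1, with dim channels, are limited by signal over background. The causes of other shifts were not tested.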
